A study of Homo sapiens with 2 samples.

Results

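Transcripts of 7 chemokine genes that draw neutrophils, monocytes and lymphocytes were followed: CXCL1, CXCL2, CXCL3, CXCL5, CXCL8, CCL2 and CCL20. They are 7 of the 16399 genes listed in the deposited files, found by Entrez ID. They were selected on their CPM in these same libraries, because several were already known to be higher with PKP2. Their differences between the libraries are therefore a description of these genes and carry no test.

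The study sequenced RNA of A549, an established human lung adenocarcinoma line, at passage 5 in serum-containing DMEM. The vector group held 1 library, from cells with the vector, and the PKP2 group held 1 library, in which SFB-tagged PKP2 was overexpressed. PKP2, plakophilin 2, links desmosomal cadherins to intermediate filaments at the inner face of the desmosome. Whether each culture was a pool or 1 clone, and how long PKP2 had been overexpressed, is not given in the sources used here. With 1 library per group, each difference compares these libraries and not the conditions, and none has a replicate check.

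Chemokines are small secreted proteins that guide leukocytes along a gradient through G protein-coupled receptors. CXCL1, CXCL2, CXCL3, CXCL5 and CXCL8 belong to the group that carries an ELR motif before its CXC cysteines, and they attract neutrophils through CXCR2, with CXCL8 also using CXCR1. CCL2 attracts monocytes through CCR2, and CCL20 attracts dendritic cells and lymphocytes through CCR6. In airway and alveolar epithelium these genes are classical targets of NF-kappaB, which inflammatory cytokines and microbial products activate, and many of their mRNAs are short-lived because of AU-rich elements in the 3′ UTR.

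The DNA just before the start of these genes is shown first, because a run of letters close to the start is what most of them share apart from the way they were picked. RefSeq promoter windows of GRCh38.p14 matched 6 of the 7 members, and CCL2 was not matched. Each line gives the 100 bases before the RefSeq start, 5′ to 3′ on the strand of the gene. CXCL6, a neighbour on chromosome 4 that was almost silent here, is added for comparison. Capitals mark GGNNNTTCC on either strand, the core of a kappaB-like motif, and TATAAA, an element of core promoters. The stretches are chr4:73869293-73869392 (plus strand) for CXCL1, chr4:74099196-74099295 (minus) for CXCL2, chr4:74038690-74038789 (minus) for CXCL3 and chr4:73998678-73998777 (minus) for CXCL5. Those of the others are chr4:73740469-73740568 (plus) for CXCL8, chr2:227813742-227813841 (plus) for CCL20 and chr4:73836578-73836677 (plus) for CXCL6.
CXCL1: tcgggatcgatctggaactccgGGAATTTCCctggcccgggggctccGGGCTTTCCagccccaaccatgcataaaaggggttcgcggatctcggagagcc
CXCL2: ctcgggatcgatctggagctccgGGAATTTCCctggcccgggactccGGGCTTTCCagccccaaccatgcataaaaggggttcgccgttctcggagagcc
CXCL3: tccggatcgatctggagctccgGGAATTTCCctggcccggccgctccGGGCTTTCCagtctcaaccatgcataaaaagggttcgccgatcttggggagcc
CXCL5: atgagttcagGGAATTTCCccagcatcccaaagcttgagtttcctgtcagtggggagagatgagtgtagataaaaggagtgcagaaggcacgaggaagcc
CXCL8: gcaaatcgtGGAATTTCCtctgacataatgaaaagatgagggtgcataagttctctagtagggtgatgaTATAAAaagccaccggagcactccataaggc
CCL20: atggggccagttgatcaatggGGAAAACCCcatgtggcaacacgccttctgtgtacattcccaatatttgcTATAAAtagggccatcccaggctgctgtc
CXCL6: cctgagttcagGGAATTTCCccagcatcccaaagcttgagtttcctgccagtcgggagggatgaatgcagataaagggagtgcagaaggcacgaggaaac

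The same 9 letters, GGAATTTCC, stood in the printed stretch of 5 of the 6 members with a window. The first of these letters lay 78 bases before the start in CXCL1 and CXCL3, 77 in CXCL2, 90 in CXCL5 and 91 in CXCL8. CXCL1, CXCL2 and CXCL3 held a further match to GGNNNTTCC 53 bases before the start, and CCL20 had its match on the opposite strand at 79. TATAAA stood 31 bases before the start of CXCL8 and 29 before that of CCL20, and in none of the other 4 windows. Across all 35116 windows of 300 bases (250 before and 50 after the start), 20.1% held GGNNNTTCC on either strand, 11.5% held TATAAA and 0.461% held GGAATTTCC, a motif counted after these promoters had been read. The 10-letter kappaB consensus, which contains GGNNNTTCC in part of its forms, was in 5 of the 6 member windows and in 11.3% of all windows. TGANTCA, an AP-1 motif, was in CXCL8 only among the members, 137 bases before its start, and in 7.71% of all windows. GGGCGG, a GC box, was in 2 member windows, those of CXCL1 and CXCL3, and in 45.0% of all. A match is a run of letters and not a measured binding site.

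Genes elsewhere with the same letters gave a comparison that did not use the members. Besides the members, 59 expressed genes had GGAATTTCC in a window, and their median difference between the libraries was -0.04 on the log2 scale. Of these 59 genes, 8 (13.6%) had a counting interval above 1 and 9 had one below 1, where 16.4% of all 10441 expressed genes with a window had one above 1. For the kappaB consensus, 314 (17.3%) of 1812 expressed genes besides the members had an interval above 1 and 355 had one below. For GGNNNTTCC these were 512 (16.9%) and 600 of 3028 genes. The median differences were 0.009 for the kappaB consensus and 0.003 for GGNNNTTCC. A role of these motifs was not tested. CXCL6 carried GGAATTTCC too, and 85.3% of its aligned promoter letters matched those of CXCL5. CXCL6 had 2 counts in each library.

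The members differed in how alike they are. Between the coding sequences, identity was 93.5% for CXCL1 and CXCL2, 90.7% for CXCL1 and CXCL3 and 94.4% for CXCL2 and CXCL3. Between the 250 bases before the start, identity was 68.0%, 81.4% and 73.3% for the same pairs. CXCL5 shared 87.5% of its coding letters with CXCL6, and outside these 4 pairs no coding identity among the members and CXCL6 passed 61.5%. In the longest coding transcript, 5.73% of the 50-base stretches of CXCL1, 9.24% of those of CXCL2 and 5.26% of those of CXCL3 also occurred in another gene of this set, and no stretch of 100 bases did. The read length is not given in the sources used here, so counts of CXCL1, CXCL2 and CXCL3 are uncertain by reads they may share, although all 7 members had whole counts in both libraries.

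Both libraries were of like depth, with 16996976 estimated counts for vector and 16808842 for PKP2. PKP2 itself stood at 27.3 and 268 CPM (counts per 1000000 of the library total). Genes that reached 1 CPM with vector or with PKP2, 12820 in all, are called expressed. The 10 markers of A549 epithelium, all expressed, summed to 24306 CPM with vector and 24711 CPM with PKP2. Singly they were split, with 5 higher and 5 lower. The counting interval of the ratio was above 1 for 4 of them and below 1 for 3, where 16.3% and 19.8% of all expressed genes had such intervals. CDH1 had the lowest difference of the 10, at a ratio of 0.871 (0.797 to 0.952). Short and GC-rich transcripts tended to be higher with PKP2, and long ones lower. The median difference on the log2(CPM + 1) scale was 0.14 in the shortest 20% of the expressed genes and -0.16 in the longest 20%, and an additive trend on length and GC held 24.0% of the variance of the differences. All 32 ribosomal protein genes of the RNA-quality list, which are short, had an interval above 1, with a median of 0.25 that became 0.08 with the trend removed. The members' values are therefore given with and without this trend.

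All 7 chemokines had more transcript in the PKP2 library than in the vector library, by 1.28-fold for CCL2 to 1.61-fold for CCL20 on the plain ratio of CPM. The neutrophil attractants CXCL1 and CXCL3 were 1.57-fold and 1.54-fold higher, CXCL8, CXCL5 and CXCL2 lay between 1.31-fold and 1.40-fold, and CCL20 rested on few counts. Of all expressed genes, 49.7% were higher in the PKP2 library. The exact 95% counting interval of the ratio was above 1 for 6 of 7 members, where 16.3% of all expressed genes had such an interval and 19.8% had one below 1. On the log2(CPM + 1) scale, 2 of 7 members were at least 1.5-fold higher, where 0.733% of all expressed genes were, and 0.788% were at least 1.5-fold lower. All 7 members were at least 25% higher on that scale, where 5.16% of all expressed genes were. The median difference was 0.44 for the members and -0.00 for all expressed genes. At a mean of 30 CPM or more, where all 6 members of that level had an interval above 1, the shares of genes with an interval above and below 1 were 23.3% and 29.7%. Nothing is read from these shares, since the same values had chosen the members.

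**Figure D1:**
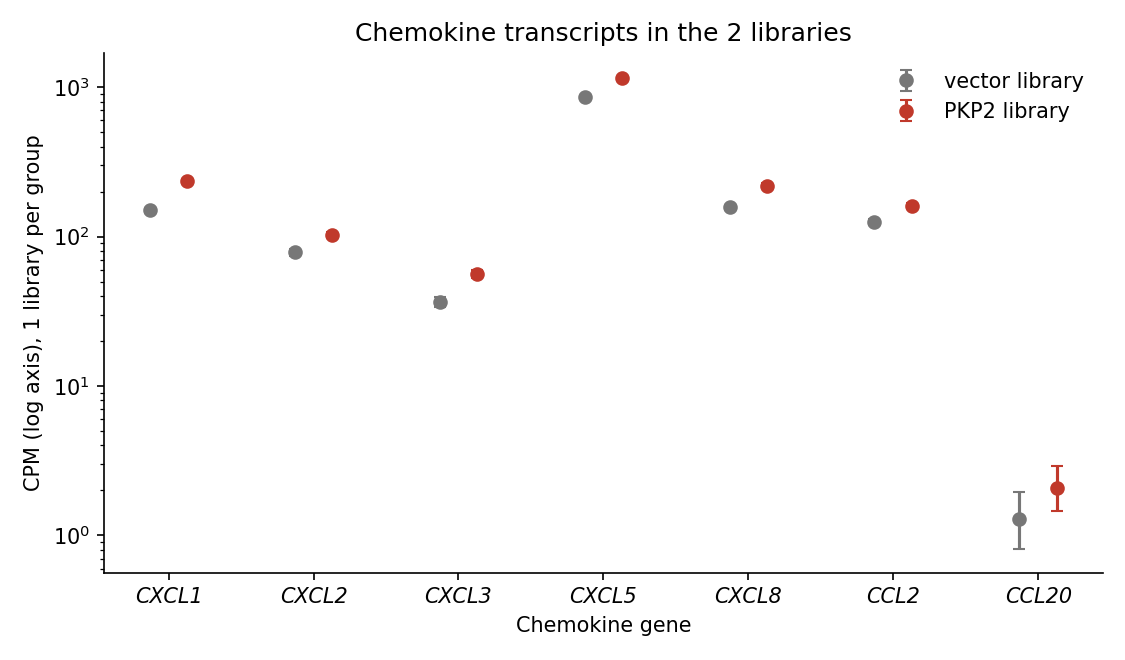
CPM of each chemokine (log axis) in the vector library (grey) and the PKP2 library (red), 1 library per group, with bars for the exact 95% counting interval. The PKP2 point is above the vector point for all 7 genes, with bars that overlap for CCL20, at 1.29 and 2.08 CPM.

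CXCL1 (Entrez 2919; GRCh38 chromosome 4, 73869393 to 73871242, plus strand) was first described as a growth-regulated product of melanoma cells and attracts neutrophils. It stood at 150 CPM with vector, from 2556 counts, and at 237 CPM with PKP2, from 3977 counts. The PKP2 library was the higher, by 1.57-fold (95% counting interval 1.497 to 1.65). On the log2(CPM + 1) scale the difference was 0.65, higher than or equal to that of 99.5% of the expressed genes, or 0.53 once the length and GC trend was taken out.

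CXCL3 (Entrez 2921; chromosome 4, 74036589 to 74038807, minus strand), a close relative of CXCL1 and CXCL2, was the least abundant of the neutrophil attractants. It stood at 36.6 CPM in the vector library (622 counts) and at 56.3 CPM in the PKP2 library (947 counts). The PKP2 library was 1.54-fold higher (1.39 to 1.71), with a log2 difference of 0.61 that became 0.49 with the trend removed.

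CXCL2 (Entrez 2920; chromosome 4, 74097035 to 74099293, minus strand), known in its mouse form as a macrophage inflammatory protein, differed less than these near relatives. Its levels were 78.4 CPM with vector (1333 counts) and 103 CPM with PKP2 (1728 counts). The ratio was 1.31 (1.22 to 1.41), and the log2 difference was 0.39, or 0.27 with the trend removed. The ratio of CXCL1 divided by that of CXCL2 had an approximate 95% counting interval of 1.10 to 1.31, and the ratio of CXCL2 was 0.851 times that of CXCL3 (0.752 to 0.964). For CXCL1 against CXCL3 the interval of 0.913 to 1.14 included 1. CXCL2 thus stood below both relatives by more than counting error in these libraries, with the limit that the 3 genes may share reads.

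CXCL5 (Entrez 6374; chromosome 4, 73995642 to 73998779, minus strand), an epithelial neutrophil attractant, was by far the most abundant member. It stood at 857 CPM with vector, from 14571 counts, and at 1162 CPM with PKP2, from 19525 counts. The ratio was 1.35 (1.33 to 1.38), the narrowest interval among the members, because of its high counts. Its log2 difference was 0.44 and became 0.48 with the trend removed, since its transcript of 2538 nucleotides is long among the members and the trend at its length and GC was -0.04.

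CXCL8 (Entrez 3576; chromosome 4, 73740506 to 73743716, plus strand) encodes interleukin 8. It stood at 157 CPM with vector (2673 counts) and at 220 CPM with PKP2 (3693 counts). The PKP2 library was 1.40-fold higher (1.33 to 1.47). The log2 difference of 0.48 became 0.49 with the trend removed, so CXCL8 and CXCL5 were the only members whose difference was not smaller without the trend.

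CCL2 (Entrez 6347; chromosome 17, 34255218 to 34257203, plus strand), the monocyte attractant MCP-1, had the smallest ratio of the members. Its levels were 125 CPM with vector, from 2126 counts, and 161 CPM with PKP2, from 2699 counts. The ratio was 1.28 (1.21 to 1.36). The log2 difference of 0.36 became 0.22 with the trend removed, the smallest of the 7, its 741 nucleotides being the shortest transcript of the set.

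CCL20 (Entrez 6364; chromosome 2, 227805739 to 227817564, plus strand), the ligand of CCR6, was near the lower limit of detection. It had 22 counts (1.29 CPM) with vector and 35 counts (2.08 CPM) with PKP2. The ratio of 1.61 had an interval of 0.918 to 2.88 that includes 1, so a difference was not detectable at this depth. CCL20 was past 1.5-fold on the plain ratio, with which 3 members passed, but not on the log2(CPM + 1) scale, where its difference was 0.43, or 0.34 with the trend removed.

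**Figure D2:**
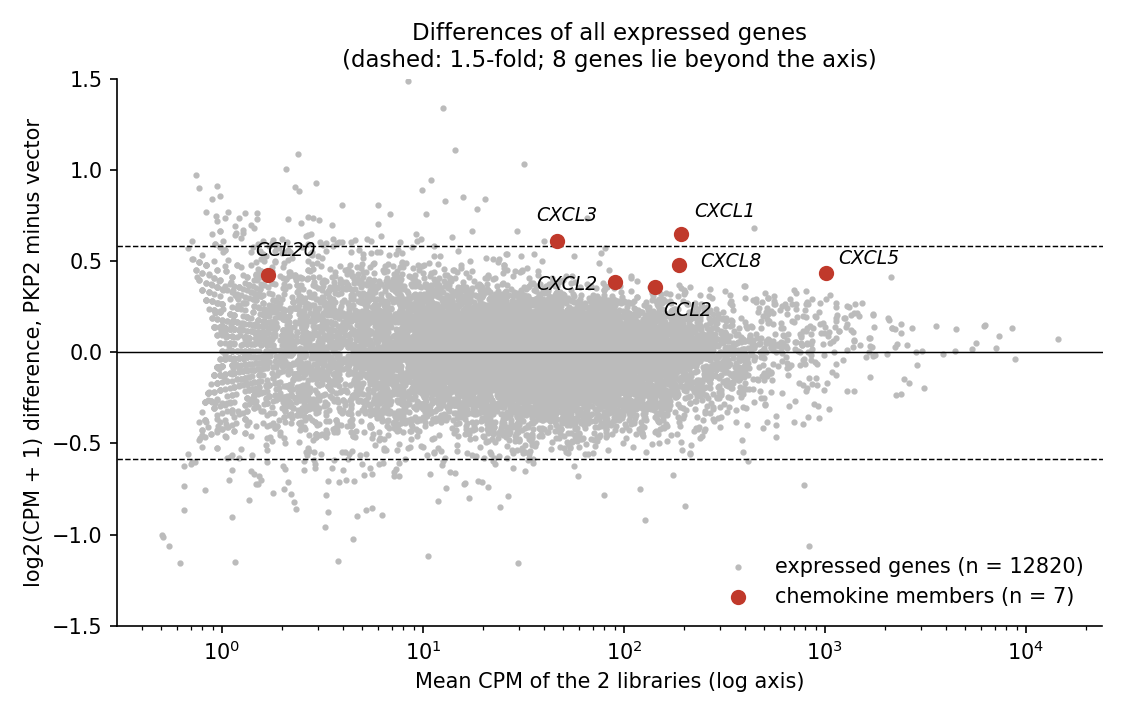
Difference in log2(CPM + 1), PKP2 minus vector, of each of the 12820 expressed genes (grey) against its mean CPM in the 2 libraries (log axis), with the 7 chemokines in red and dashed lines at 1.5-fold. CXCL1 at 0.65 and CXCL3 at 0.61 lie above the upper line, and the other 5 lie between 0.36 and 0.48; 8 genes lie beyond the vertical axis.

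Together the 7 members took 1406 CPM of the vector library and 1940 CPM of the PKP2 library, 1.38-fold more (1.36 to 1.40). Without CXCL5 the sums were 549.04 CPM and 778 CPM, 1.42-fold more (1.38 to 1.46), so the higher sum did not rest on CXCL5. CXCL5 made up 61.0% of the summed CPM with vector and 59.9% with PKP2. CXCL1 made up 10.7% and 12.2%, CXCL8 made up 11.2% and 11.3%, and CCL2 made up 8.89% and 8.28%. CXCL5 headed the mix in both libraries, and the share of CXCL1 was larger with PKP2.

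Levels of different genes were compared per length, as estimated counts per kilobase of the longest coding transcript, scaled to sum to 1000000 per library. In the vector library the order was CXCL5 at 840, CCL2 at 420, CXCL1 at 341, CXCL8 at 229, CXCL2 at 160, CXCL3 at 84.6 and CCL20 at 3.84. In the PKP2 library it was CXCL5 at 1084, CCL2 at 513, CXCL1 at 511, CXCL8 at 305, CXCL2 at 200, CXCL3 at 124 and CCL20 at 5.88. The order was the same in both. CCL2 and CXCL1 were apart in the vector library, at intervals of 402 to 438 and 328 to 354. In the PKP2 library their intervals of 494 to 533 and 495 to 527 overlapped, so these neighbours did not differ there beyond counting error. The ratio of CXCL1 was 1.23 times that of CCL2, one of 8 of the 21 member pairs whose ratios differed by more than counting error. CXCL1 and CXCL3 each stood above CXCL2, CXCL5 and CCL2, CXCL1 also stood above CXCL8, and CXCL8 stood above CCL2. These pairs rest on the plain ratios. With the length and GC trend removed, CXCL1 at 0.53, CXCL8 and CXCL3 at 0.49 and CXCL5 at 0.48 on the log2 scale lay close together. None of the 6 pairs with CCL20 could be told apart.

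The trend with transcript length touches the members, which are mostly short. Their transcripts run from 741 to 2538 nucleotides, where the median expressed gene has 3460, and their GC content runs from 33.4% to 46.0%, where the median is 48.7%. At the length and GC of each member the trend alone was 0.12 for CXCL1, 0.11 for CXCL2, 0.12 for CXCL3, -0.01 for CXCL8, 0.14 for CCL2 and 0.09 for CCL20. With it removed, all 7 stayed higher in the PKP2 library, at a median of 0.48, but none was at least 1.5-fold higher. Of the 6 members that averaged 30 CPM or more, all 6 were at least 25% higher as measured. So were 105 (1.65%) of the 6380 expressed genes of that level. Within the members' range of length and GC, 12 (2.67%) of 449 such genes were. The 105 and the 12 both include the 6 members, so these shares do not show how length and GC act on other genes. CXCL2 and CCL2, the members with the smallest ratios, had the smallest differences with the trend removed as well. Whether the remaining difference has to do with PKP2 or with the libraries cannot be told apart in this design.

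**Figure D3:**
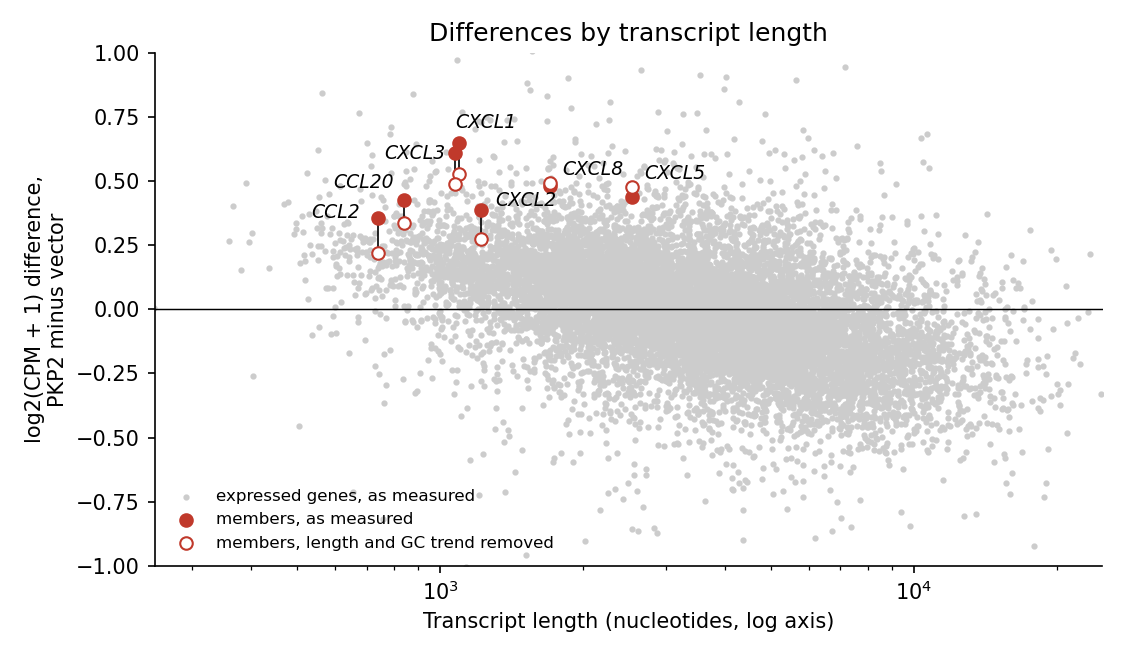
Difference in log2(CPM + 1), PKP2 minus vector, against transcript length in nucleotides (log axis) for the expressed genes (grey, as measured), with each chemokine as measured (filled red) and after removal of the length and GC trend (open red). The open points of CXCL1, CXCL2, CXCL3, CCL2 and CCL20 lie below the filled ones and those of CXCL5 and CXCL8 just above, and all 14 lie above 0; 32 genes lie beyond the axes.

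AU-rich elements, through which proteins such as tristetraprolin speed mRNA decay, were counted in the 3′ UTRs of the longest coding transcripts. The nonamer TTATTTATT occurred 5 times in CXCL2, 3 times in CXCL1 and 1 time each in CXCL3 and CXCL8, and not in CXCL5, CCL2 or CCL20. At least 1 nonamer was thus in 4 of 7 members, where 9.20% of the expressed genes with a 3′ UTR had one. The pentamer ATTTA occurred 11 times in CXCL5, 10 in CXCL2, 9 in CXCL8, 7 in CXCL3, 5 in CXCL1, 3 in CCL20 and 1 time in CCL2. At least 3 pentamers were in 6 of 7 members, where 46.6% of the expressed genes with a 3′ UTR had as many. Across all 1157 expressed genes with the nonamer the median difference between the libraries was -0.09, and -0.00 with the trend removed.

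On chromosome 4, CXCL8, CXCL1, CXCL5, CXCL3 and CXCL2 lie within 359 kb, measured from the start of CXCL8 to that of CXCL2. The genes between and around them were read for comparison. CXCL6 had 2 counts in each library, PF4 had 3 and 7, and PPBP had 3 and 8, all too few to compare. MTHFD2L, a mitochondrial folate enzyme gene that begins 374 kb from the CXCL8 start, had 241 counts in each library and a ratio of 1.01 (0.842 to 1.21). RASSF6, 120 kb before CXCL8, had a ratio of 1.05 (0.824 to 1.33). With the trend removed the log2 difference of MTHFD2L went from 0.015 to 0.048. That of RASSF6 went from 0.06 to 0.23, about the level of the member CCL2 at 0.22, with an interval of the ratio that is wide. Of the 8 expressed neighbours 0 had an interval above 1, where 16.3% of all expressed genes had one. An interval below 1 was found for 4, where 19.8% of all expressed genes had one: COX18, ANKRD17, EREG and AREG.

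EREG and AREG, which encode the EGFR ligands epiregulin and amphiregulin, lie 625 and 705 kb from CXCL8. EREG stood at 271 CPM with vector and 204 CPM with PKP2, 1.33-fold lower. AREG stood at 69.9 and 56.6 CPM, 1.24-fold lower. With the trend removed their log2 differences were -0.27 and -0.41. COX18 and ANKRD17, which lie before CXCL8 on the other side of the cluster, went from -0.25 to -0.09 and from -0.28 to -0.08. BTC at -0.11 and PARM1 at -0.21 had intervals that included 1.

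**Figure D4:**
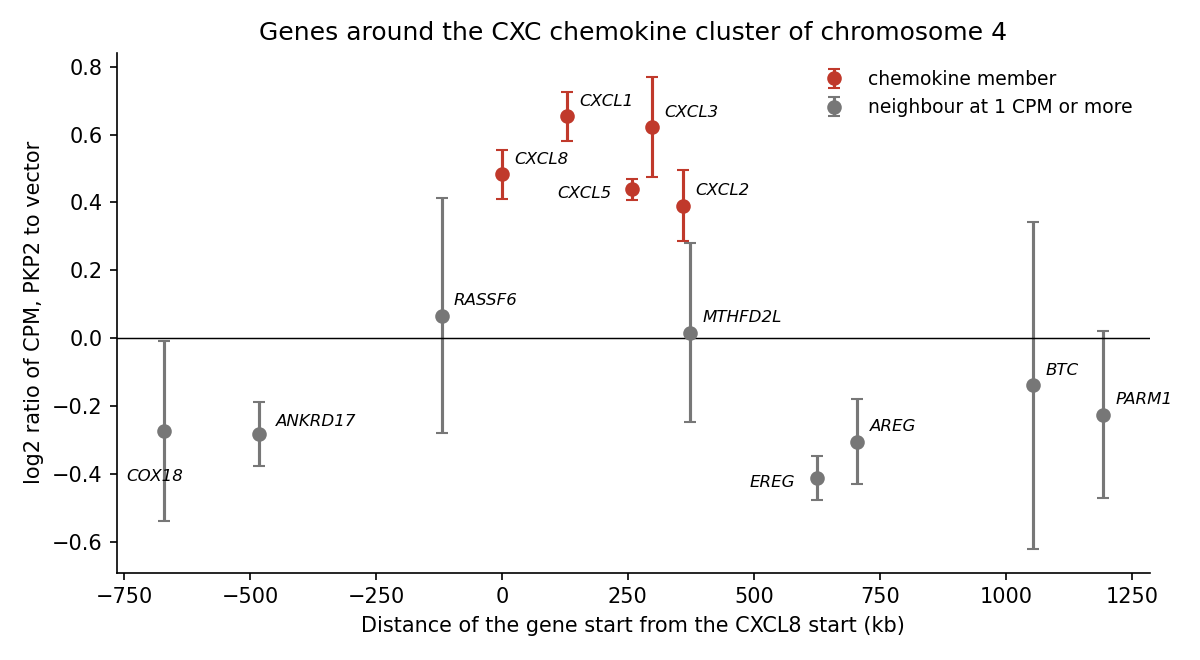
log2 ratio of CPM, PKP2 to vector, of the expressed genes around the CXC chemokine cluster of chromosome 4, by the distance of each gene's start from that of CXCL8 in kb, with bars for the exact 95% counting interval. The 5 chemokines (red) lie above 0 with bars clear of it, and EREG and AREG (grey) lie below 0.

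Of the other chemokines, 17 were listed and 4 were expressed. CX3CL1, the membrane-bound chemokine fractalkine, had 9 counts with vector and 22 with PKP2, a ratio of 2.47 (1.09 to 6.10). CCL5, which attracts T cells and monocytes, stood at 1.94 and 3.61 CPM, a ratio of 1.86 (1.205 to 2.95), from a fractional count and so with reads that may belong to other genes. MIF, a cytokine with chemokine-like activity, stood at 214 and 266 CPM, a ratio of 1.246 (1.19 to 1.30), and a log2 difference of 0.32 that became 0.06 with the trend removed. CXCL16, which attracts CXCR6-bearing T cells, had a ratio of 1.03 (0.871 to 1.21). Of the 4, CX3CL1, CCL5 and MIF had an interval above 1, where 16.3% of all expressed genes had one, and that of CXCL16 included 1. CX3CL1 stood at 0.53 CPM with vector and 1.31 CPM with PKP2, so it counted as expressed only through the library where it was higher. The median difference was 0.46 for the 4 expressed genes and 0.08 for the 17 listed ones with no filter. CXCL10, the interferon-induced T-cell attractant, named after its value was seen, had 0 counts with vector and 2 in the PKP2 library.

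The chemokine receptors that were listed had few counts. Of 13 chemokine receptor genes listed, 1 was expressed: CXCR4, the receptor of CXCL12, at 4.35 CPM with vector and 3.09 CPM with PKP2, with an interval of the ratio of 0.489 to 1.03. CCR6, the CCL20 receptor, named after its value was seen, had fractional counts of 3.98 and 1.84. CXCR1, CXCR2 and CCR2 were not among the 13 listed.

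Leukocytes make the same chemokines, and their markers were read beside the members. Of 20 leukocyte markers, 8 were listed and 4 were expressed, and the listed ones summed to 88.9 CPM with vector and 91.2 CPM with PKP2. CD68, a lysosomal protein that epithelial lines also express, made up most of this, at 78.4 and 82.5 CPM. CD14 had 57 and 55 counts and ITGAM 66 and 56. ITGAX had 37 and 20 counts, a ratio of 0.547 (0.301 to 0.966), and was the 1 expressed marker whose interval left out 1. Of the listed markers that were not expressed, LYZ had 5.82 and 4.14 counts, CD79A 7 and 5, ELANE 4 and 4 and CSF1R 1 and 2. PTPRC, another of the 20 markers, was not among the 8 that were listed. Of 12 fibroblast and endothelial markers, 9 were listed and 3 expressed, and the listed ones summed to 11.3 and 14.9 CPM. All 3 expressed ones were higher with PKP2, with a median of 0.32 that became 0.34 with the trend removed. COL1A1 led, at 8.12 and 10.4 CPM, a ratio of 1.27 (1.01 to 1.61). The intervals of the other 2, THY1 and LUM, included 1, and LUM reached 1 CPM only with PKP2. The part of these cells in the chemokine differences was not tested. The listed fibroblast and endothelial markers that were not expressed went both ways. PDGFRA had 8 and 3 counts, COL3A1 2 and 1, PDGFRB 1 and 1, KDR 1 and 2, CDH5 3 and 11 and VWF 0 and 2. In RNA from a whole culture, a change in the number of cells that make a chemokine and a change in transcript per cell cannot be told apart.

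The pathway that induces these genes was described with lists, each read beside the 16.3% and 19.8% of all expressed genes with an interval above and below 1. Of the NF-kappaB subunits, RELA, the main activating subunit, had a ratio of 1.03 (0.963 to 1.09) and NFKB1 one of 0.926 (0.848 to 1.01), both with intervals that include 1. RELB and NFKB2, subunits of the noncanonical arm, were 1.23-fold (1.09 to 1.38) and 1.11-fold (1.04 to 1.19) higher. REL was 1.31-fold lower (1.07 to 1.60). The 5 subunit genes thus did not share a direction, with a median of 0.04 that became -0.02 with the trend removed. The log2 difference of RELB then went from 0.29 to 0.15, that of NFKB2 from 0.15 to 0.09 and that of REL from -0.36 to -0.13.

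Upstream of them, 14 expressed inducing cytokines and receptors had 2 intervals above and 2 below 1, with a median of 0.00 that became -0.03 with the trend removed. IL1R1, the interleukin 1 receptor, was 1.28-fold lower, and TLR6, a receptor for bacterial lipopeptides, 1.36-fold lower from a fractional count. LTBR, the lymphotoxin beta receptor, and the cytokine IL18 were each 1.11-fold higher. Without the trend these log2 differences were -0.25 for IL1R1, -0.30 for TLR6, 0.03 for LTBR and 0.06 for IL18. The inducers IL1A, IL1B and TNF, named after their values were seen, had 22 and 33, 7 and 16, and 8 and 8 counts, with intervals that all included 1. Of 19 signalling adaptors and kinases, 1 had an interval above 1 and 5 had one below, with a median of -0.03 that became 0.03 with the trend removed. CHUK, which encodes the kinase IKK alpha, was 1.26-fold lower, TRAF6, from a fractional count, 1.22-fold lower, TAB3 1.17-fold lower, and IKBKG, the scaffold of the IKK complex, 1.14-fold higher. Their log2 differences were -0.25 for CHUK, -0.18 for TRAF6, -0.05 for TAB3 and 0.07 for IKBKG with the trend removed.

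Feedback inhibitors of NF-kappaB, which are also its targets, stood slightly higher. Of 12 expressed, 6 had an interval above 1 and 0 had one below, with a median of 0.15 that became 0.04 with the trend removed. TNFAIP3, the ubiquitin-editing inhibitor A20, was 1.24-fold higher (1.12 to 1.37), and NFKBIZ, a nuclear IkappaB protein, 1.24-fold higher (1.08 to 1.43). TNIP1 was 1.21-fold higher from a fractional count, and BCL3 1.16-fold higher. With the trend removed the log2 difference went from 0.30 to 0.36 for TNFAIP3 and from 0.30 to 0.34 for NFKBIZ, but from 0.27 to 0.20 for TNIP1 and from 0.21 to 0.05 for BCL3.

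Most of the other NF-kappaB targets were higher in the PKP2 library too. Of 18 expressed, 14 had an interval above 1, 2 had one below, and 7 were at least 1.5-fold higher, with a median of 0.41 both as measured and with the trend removed. SAA1, from a fractional count and named after its value was seen, is among the 14 and the 7. It reached 1 CPM only with PKP2 (0.85 CPM with vector and 2.14 CPM with PKP2). Among genes of the list that averaged at least 5 CPM the median was 0.21. This list was drawn up with earlier results of these data known and is not independent evidence of a direction. CFB, complement factor B, was 2.29-fold higher. IL11, a cytokine that signals through gp130, was 1.93-fold higher (1.44 to 2.63), ICAM1, an adhesion molecule for leukocytes, 1.84-fold higher, and IL32 1.68-fold higher (1.54 to 1.83). IL6, named after its value was seen, had 24 and 58 counts, a ratio of 2.44 (1.495 to 4.11). BIRC2 and BIRC3, inhibitors of apoptosis, were the 2 with an interval below 1, at ratios of 0.875 and 0.905.

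Transcription factors and repressors that act on chemokine promoters were split. Of 15 other induction factors, 6 had an interval above 1 and 5 had one below. CEBPB, CEBPD and CEBPA, of the C/EBP family that works with NF-kappaB at the CXCL8 promoter, were higher by 1.28-fold (interval 1.19 to 1.38), by 1.253-fold (1.11 to 1.42) and by 1.24-fold (1.02 to 1.51), and IRF1 was 1.27-fold higher from a fractional count. With the trend removed the log2 difference went from 0.35 to 0.19 for CEBPB, from 0.32 to 0.15 for CEBPD and from 0.29 to 0.17 for CEBPA, and was 0.32 for IRF1. The median of the list went from 0.06 to -0.00. Of 10 repressors and glucocorticoid genes, 1 had an interval above 1 and 6 had one below, with a median of -0.08 that became -0.02 with the trend removed. NR3C1, the glucocorticoid receptor that dampens chemokine expression, was 1.32-fold lower from a fractional count, and its target TSC22D3 was 1.23-fold lower (1.03 to 1.47). Its target FKBP5 was 1.15-fold lower, and the corepressor NCOR1, from a fractional count, 1.13-fold lower. With the trend removed the differences were -0.20 for NR3C1, -0.36 for TSC22D3, -0.02 for FKBP5 and 0.01 for NCOR1.

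Factors of mRNA decay and stability showed no shared direction once the trend was removed. Of 17 expressed, 2 had an interval above 1 and 6 had one below, with a median of -0.06 that became -0.00. ZC3H12A, the RNase regnase-1 and itself an NF-kappaB target, was 1.23-fold higher (1.14 to 1.32). CNOT1, the scaffold of the deadenylase complex, was 1.30-fold lower from a fractional count, MAPK14, the kinase p38 alpha, 1.23-fold lower, and ZC3H12C had a ratio of 0.832. Their log2 differences without the trend were 0.20 for ZC3H12A, -0.22 for CNOT1, -0.23 for MAPK14 and -0.02 for ZC3H12C. ZFP36, which encodes tristetraprolin and was named after its value was seen, had a ratio of 0.990 (0.940 to 1.04).

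**Figure D5:**
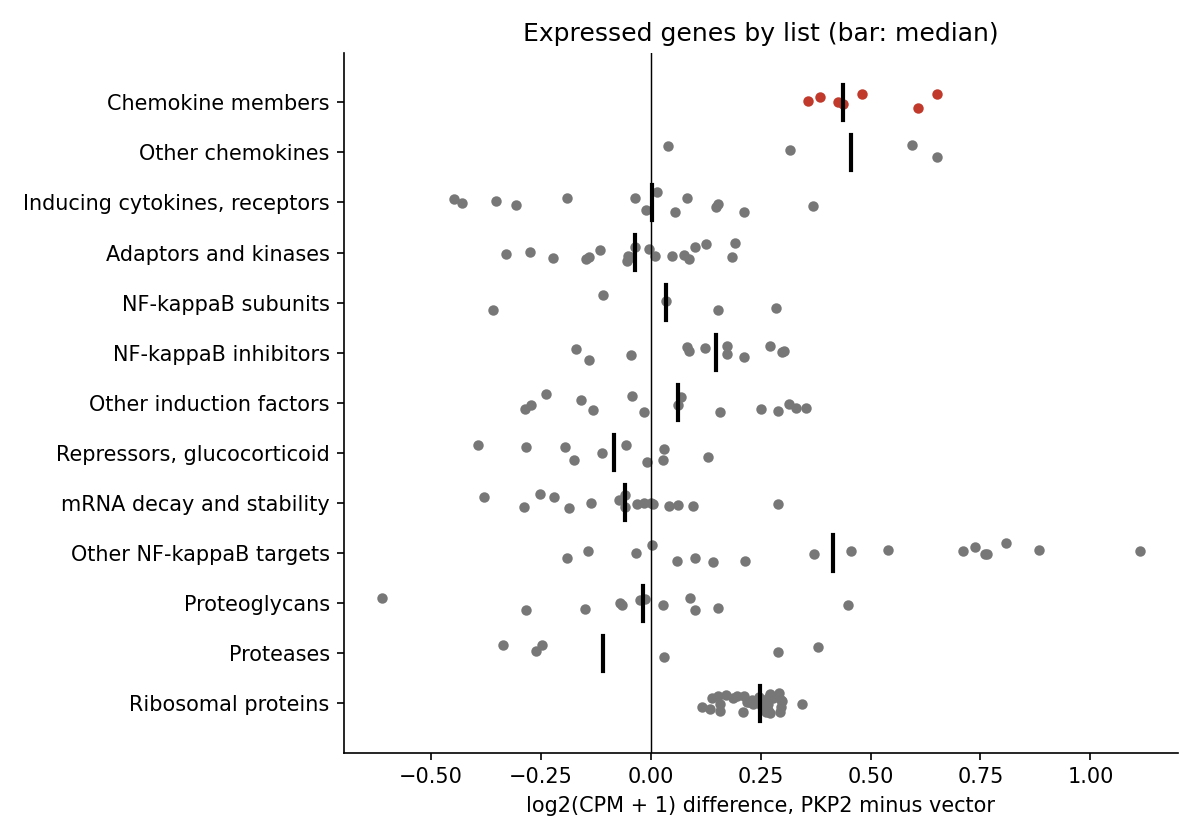
Difference in log2(CPM + 1), PKP2 minus vector, of the expressed genes of each list (1 point per gene; vertical offsets within a row only separate points), with a black bar at the list's median. The chemokine members have a median of 0.44 and the other NF-kappaB targets 0.41, or 0.21 among targets that averaged at least 5 CPM. Other chemokines at 0.46, ribosomal proteins at 0.25, NF-kappaB inhibitors at 0.15, repressors at -0.08 and proteases at -0.11 also lie off 0. The lists of inducers, adaptors, subunits and decay factors lie around 0. All lists were chosen with earlier results of these data known.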

How the data were processed

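RNA of 2 A549 cultures was sequenced, 1 per group. The authors deposited 1 estimated count per gene and library, under a header that says count, with no scaling visible. For 2403 genes with vector and 2491 with PKP2 it had a fractional part. The submitters' processing notes name RSEM 1.2.12, HISAT2 2.0.4, Bowtie2 and the build GRCh38.p12, with no role or order. The sources used here do not give filters, read layout, read length or strand setting, so overlapping and antisense genes cannot be told apart.

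CPM is the estimated count per 1000000 of the library total. Ratios are plain ratios of CPM with exact 95% Clopper-Pearson intervals from rounded counts. Differences are log2(CPM + 1), PKP2 minus vector, which understates the ratio of genes near 1 CPM, and fold thresholds were set on that scale. Intervals for a pair of ratios are approximate, from a normal approximation on the log scale. Reads carry no molecular identifiers that are known here, so all intervals are limited to counting error. No p-value was computed, since each group is 1 library. A count of 3 corresponds to 0.177 CPM with vector and 0.178 CPM with PKP2.

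Symbols were matched by Entrez ID to RefSeq for 16183 of 16399 genes. Coordinates, lengths, GC and 3′ UTRs came from the longest coding transcript of GENCODE release 29, found for 98.9% of the expressed genes. The trend was an additive lowess (span 0.3) on log length and GC. Promoter windows came from RefSeq (GRCh38.p14), whose start can differ from the GENCODE gene start used for distances. Among the printed genes the starts agreed for CXCL1 only. The printed stretches of CXCL3, CXCL5, CXCL6 and CCL20 lie wholly within the GENCODE gene bounds, and those of CXCL2 and CXCL8 in part.

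The members and the 19 gene lists were chosen with earlier results of these data known. Named genes are the members, PKP2, the expressed other chemokines, receptors and cluster neighbours, the 5 NF-kappaB subunits, up to 4 genes per other list with the largest difference at a mean of 5 CPM or more, and the 5 genes nearest to the members' median. Others are said to be named after their values were seen, as were CXCL6, PF4, PPBP, BIRC2, BIRC3 and the cell type markers other than CD68 and COL1A1. The motif GGAATTTCC, the comparison at a mean of 30 CPM or more and the plain-ratio count were added after the data were seen. Alternatives were thresholds of 25% higher and 2-fold, median and trimmed-mean scaling, trend removal, leaving out fractional genes, keeping all genes or only those averaging 5 CPM, and pseudocounts of 0.1 and 5. The calculation was tested on simulated counts. Python 3.11.15, numpy 2.4.6, pandas 2.3.3, scipy 1.17.1, statsmodels 0.14.6 and Biopython 1.88 were used.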

Additional observations from a re-analysis of the deposited data

How the results depend on the processing

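The 7 members were higher in the PKP2 library in all 55 values recomputed under 8 alternatives of pseudocount, filter, scaling, trend and fractional counts. The filter at a mean of 5 CPM leaves out CCL20. Pseudocounts and filters cannot change the sign of a difference, and the scaling moved values by less than 0.01. Only trend removal could have changed a sign, and the members were picked with their values known, so the shared sign is no further evidence. With the length and GC trend removed, 4 values moved by more than counting error: CXCL1 to 0.53, CXCL2 to 0.27, CXCL5 to 0.48 and CCL2 to 0.22, and the median to 0.48. The members' median was also 0.48 with a pseudocount of 0.1. The number of members at least 1.5-fold higher, 2 as reported, was 1 with a pseudocount of 5, 0 with the trend removed, 7 at a threshold of 25% higher and 0 at 2-fold, and 3 by the plain ratio. Over all expressed genes, 94 were at least 1.5-fold higher and 101 lower. These counts became 249 and 206 with a pseudocount of 0.1, 19 and 20 with one of 5, 31 and 50 at a mean of 5 CPM or more, 662 and 895 where the higher library needed to be only 25% above the lower, and 11 and 13 at 2-fold. Median and trimmed-mean scaling moved all genes by less than 0.01 on the log2 scale. Of 133 list medians under the alternatives, 122 moved by less than the counting error of the gene nearest to the median, and 6 changed sign, 5 of them with the trend removed. These 5 were the A549 markers (0.0056 to -0.089), the inducers (0.0023 to -0.031), the adaptors (-0.035 to 0.027), the NF-kappaB subunits (0.036 to -0.016) and the other induction factors (0.063 to -0.0018). The proteases went from -0.11 to 0.016 with no filter. The list of other NF-kappaB targets had a median of 0.21 over its genes at a mean of 5 CPM or more and with no filter, and 0.31 with a pseudocount of 5. No paired analysis was possible because each group held 1 library. Depth limits CCL20, CX3CL1, CCL5 and the receptors, whose few counts leave wide intervals. Library, culture and group cannot be told apart.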

Other observations

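Genes for proteins that hold or cut chemokines after secretion were read as well, beside the 16.3% of all expressed genes with an interval above 1 and the 19.8% with one below. Of 12 expressed genes for proteoglycans and their synthesis, which hold chemokines on the cell surface, 0 had an interval above 1 and 3 had one below, with a median of -0.02. HS2ST1, a heparan sulfate sulfotransferase, was 1.22-fold lower (1.11 to 1.35), and NDST1, which modifies the same chains, 1.11-fold lower (1.05 to 1.17). With the trend removed their log2 differences went from -0.28 to -0.093 and from -0.15 to -0.060. SDC3 and SDC4, which encode syndecans, had ratios of 1.12 (0.986 to 1.26) and 1.07 (0.987 to 1.17). Of 6 expressed proteases that process chemokines, 0 had an interval above 1 and 2 had one below, with a median of -0.11. ADAM10 and ADAM17, sheddases of membrane-bound CX3CL1 and CXCL16, had ratios of 0.792 (0.759 to 0.827) and 0.833 (0.767 to 0.905), and log2 differences of -0.10 and -0.17 with the trend removed. MMP7 had a ratio of 1.02 (0.973 to 1.07). MMP2 had a ratio of 1.27 (0.934 to 1.73), with a log2 difference of 0.29 that became 0.26 with the trend removed. Of the 6 expressed proteases, 3 were higher and 3 lower.

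Among 6450 genes with a symbol, whole counts and a mean of 20 CPM or more, the 5 nearest to the members' median difference of 0.44 were HOXB7, CPSF4, PLEK2, POLR2F and DCTN3. Likeness was measured over 2 libraries only. With the length and GC trend removed they stood between 0.24 for DCTN3 and 0.34 for POLR2F, below the members' median of 0.48.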
